A study of Homo sapiens with 4 samples.

Results

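The genes described here encode the proteasome: its catalytic core, its regulatory particle, its activators, the factors that assemble it and a few proteins that control or serve it. Members were found by gene name in the authors' deposited comparison of isoginkgetin with DMSO, as every name of the family PSMA to PSMG that ends in its number, plus POMP, ADRM1, NFE2L1, NFE2L2, DDI2, SHFM1, VCP and UCHL5. The rule found 35 genes among the 8727 of the authors' deposited table. Since that table holds only genes with an adjusted p under 0.05, each member passed the threshold by the way it was found. A fuller list of 56 proteasome genes, written from knowledge of the complex, served as the denominator, and the other 21 listed genes have no value here, so whether they were tested and how they moved is not known.

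Polyadenylated RNA was sequenced from HepG2 cells, an established human liver cancer line whose source is labelled as hepatoblastoma. One group of 2 libraries received the solvent DMSO, and the other, also of 2 libraries, received isoginkgetin, a plant biflavonoid, at 20 µM for 24 h; no genetic change is named for either group, and both are 1 cell line. Only the authors' comparison of the groups was analysed, which gives each gene a mean normalized count over all libraries, a log2 fold change with standard error (SE), a p-value and an adjusted p-value, so neither single libraries nor their total counts can be shown. Which group is the numerator is not written in the header. "Higher" and "lower" mean positive and negative log2 fold changes read as isoginkgetin over DMSO, and every direction would turn if the authors divided the other way. The labels do not say that replicates were separate cultures, so the spread behind the p-values, being that of these libraries alone, may be technical. In bulk RNA, a change in the make-up of the cells and a change in RNA per cell cannot be told apart.

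The proteasome degrades proteins tagged with ubiquitin. Its barrel-shaped 20S core is built from outer alpha rings, which gate the entrance, and inner beta rings, which carry the protease sites. The 19S regulatory particle binds ubiquitin chains, removes them and threads the substrate into the core; its base holds a ring of ATPases and its lid holds the main deubiquitinase. When proteasome activity is short, cells are known to raise all subunits together through the transcription factor NRF1, encoded by NFE2L1, which the p97 ATPase (VCP) draws out of the endoplasmic reticulum and the protease DDI2 cuts into its active form. NRF1 and its relative NRF2 (NFE2L2) bind antioxidant response elements in promoters.

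Because such elements are the best known shared feature of proteasome promoters, the RefSeq promoter windows of the members (GRCh38.p14, 250 bases before to 50 after each start) were searched for the element's core, TGACNNNGC, on both strands. Windows were found for 32 of the 35 members, and the others, PSMB1, PSMB6 and PSMG3, are named only. The core occurred in 12 of the 32 members (37.5%), and in 16.1% of all 27305 genes with a window of the same length. Windows rather than genes gave 31.0% for members and 13.3% for all. Below are 41-base stretches upstream of the start for members with a match before their single or most upstream start, with the matching bases in capitals and positions counted from the start, read 5′ to 3′ on the strand of the gene.
PSMD12, chr17:67366718-67366758, minus strand, motif starting at −165 and reading forward: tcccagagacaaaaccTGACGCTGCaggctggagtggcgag
PSMD9, chr12:121888625-121888665, plus strand, motif starting at −149 and reading on the opposite strand: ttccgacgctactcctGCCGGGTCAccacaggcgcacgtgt
PSMD9, chr12:121888672-121888712, plus strand, motif starting at −102 and reading forward: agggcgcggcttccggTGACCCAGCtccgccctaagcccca
PSMB3, chr17:38752621-38752661, plus strand, motif starting at −104 and reading forward: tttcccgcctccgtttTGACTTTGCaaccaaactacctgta
PSMD3, chr17:39980754-39980794, plus strand, motif starting at −37 and reading forward: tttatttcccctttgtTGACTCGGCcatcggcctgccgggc
PSMD5, chr9:120843032-120843072, minus strand, motif starting at −134 and reading forward: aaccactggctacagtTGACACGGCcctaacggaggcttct
ADRM1, chr20:62302743-62302783, plus strand, motif starting at −137 and reading forward: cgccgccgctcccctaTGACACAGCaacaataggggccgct
VCP, chr9:35072790-35072830, minus strand, motif starting at −189 and reading forward: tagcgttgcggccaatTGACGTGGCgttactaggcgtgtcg
PSME4, chr2:53971003-53971043, minus strand, motif starting at −34 and reading on the opposite strand: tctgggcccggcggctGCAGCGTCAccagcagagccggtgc
PSMD9 carries the core at 2 places before its start. PSMD3 carries another match after its start, from 33 to 41 on the opposite strand, which is not shown. The last line belongs to PSME4, one of the 2 members that were lower; DDI2, the other, had no match. SHFM1, UCHL5 and PSMA4 had the core before only one of several starts, and PSMC4 had it only after its start. A match is a description of the letters and not evidence that a factor binds there.

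Other motifs were searched in the same windows. The CCAAT box, bound by NF-Y, was present in 16 of 32 members (50%) beside 39.7% of all genes. The core of the interferon-stimulated element, searched as GAANNGAAA, occurred in 4 members (12.5%), namely PSMA4, PSMB3, PSMC2 and SHFM1, beside 9.31% of all genes. The core of the amino acid response element, searched as TGATGNAA, was in 0 of 32 members and in 4.46% of all genes. All genes here include non-coding ones, and the shares were not tested.

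Proteasome genes were mostly higher, by modest amounts. Of the 56 listed genes 33 (58.9%) were called higher and 2 (3.57%) lower at an adjusted p under 0.05 in the authors' deposited table. Over the 20024 genes tested, 22.4% were called higher, 21.1% lower and 43.6% in either direction. The median log2 fold change of the 35 members was 0.44, against 0.21 for all genes in the table. The latter is a median over called genes of both signs and is not stable: it was −0.26 at an adjusted p under 0.001, −0.35 with Bonferroni adjustment and −0.64 at 1.5-fold or more. The members ran from −0.31 for DDI2 to 1.05 for PSMD9 in the authors' deposited table. If every fold change is set relative to the table's median of 0.21, 30 members stay above 0, while PSMA4, PSMB1 and NFE2L1 join DDI2 and PSME4 below it.

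**Figure D1:**
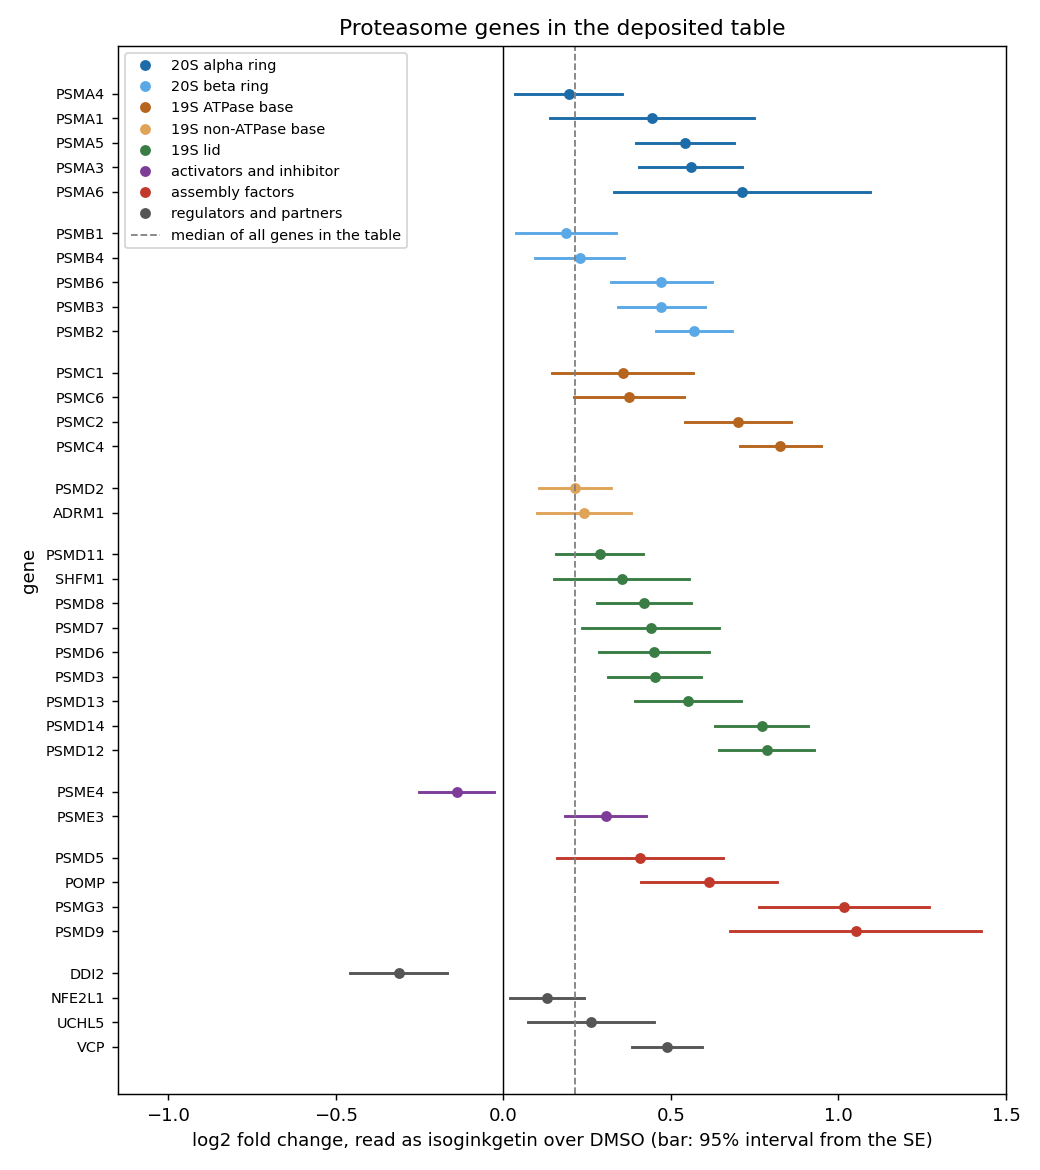
Log2 fold change (x axis, isoginkgetin over DMSO as read here) of the 35 proteasome genes in the authors' deposited table (y axis), coloured by subcomplex; points are the authors' values and bars are 95% intervals from their SE. All but DDI2 and PSME4 lie right of 0, and PSMD9 and PSMG3 lie farthest right at 1.05 and 1.02.

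Few of the changes were large. At an adjusted p under 0.001, 23 of the 56 listed genes (41.1%) were higher, beside 14.5% of all genes tested, and with Bonferroni adjustment 18 (32.1%) were, beside 10.7%. At 1.5-fold or more 8 (14.3%) were higher, which is about the 12.2% of all genes tested. At 2-fold or more 2 (3.57%) were, PSMG3 and PSMD9, beside 6.26% of all. The 8 are PSMD9, PSMG3, PSMC4, PSMD12, PSMD14, PSMA6, PSMC2 and POMP, and 5 of them had a 95% interval wholly above 1.5-fold. The median mean normalized count was 2496 for members and 741 for all genes in the table, and the median SE was 0.08 and 0.12; the threshold that chose both favours abundant genes where changes are small, and the 21 listed genes without a value have no level. Among genes with a mean of at least 1000, 28 of 30 members were higher, and 57.9% of the 3645 genes of that level in the table were.

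**Figure D2:**
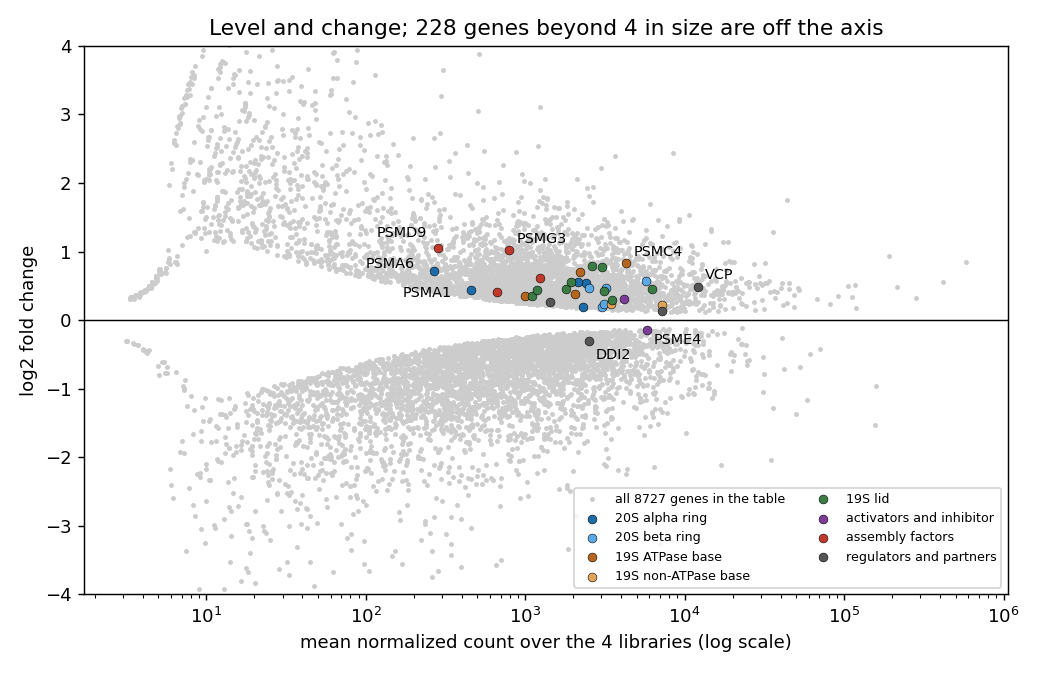
Mean normalized count over the 4 libraries (x axis, log scale) against log2 fold change (y axis) for the 8727 genes of the authors' deposited table in grey, with the 35 proteasome genes coloured by subcomplex; 228 genes beyond 4 in size are off the axis. The proteasome genes form a narrow band between −0.31 and 1.05, mostly above 0, at means from 267 to 12068.

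In the 20S alpha ring, 5 of 8 listed subunits (62.5%) were higher and none of those with a value was lower. Beside this and each subcomplex count below stands the 22.4% of all genes tested that were higher. PSMA6 showed a log2 fold change of 0.71 (adjusted p 0.000396, SE 0.20) at a mean normalized count of 267, the highest of the ring, in the authors' deposited table. PSMA3 at 0.56 (SE 0.08) and PSMA5 at 0.54 (SE 0.08) were close together there, while PSMA1 was at 0.44 (SE 0.16). PSMA4 stood lowest of the ring at 0.20 (adjusted p 0.0371, SE 0.08) with a mean normalized count of 2296 in the authors' deposited table. The 95% intervals of 2 of the 10 pairs were apart, those of PSMA4 with PSMA5 and PSMA3. The order of the remaining subunits was not tested, and overlap of intervals does not show that they moved alike. PSMA2, PSMA7 and the testis subunit PSMA8 have no value here.

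Within the ring, PSMA6 and PSMA1 also stood apart in level. Per kb of the principal GENCODE 29 transcript, their mean normalized counts were 259 and 303, whereas the other 3 alpha genes lay between 520 and 2194, or between 647 and 2194 with the shortest principal transcript. Other gene models cover 81.0% of the PSMA6 transcript and 53.2% of that of PSMA1, in both cases a protein-coding model on the same strand. How the authors counted reads shared between genes is not given in the sources used here, and its part in these levels was not tested. GENCODE also names 4 pseudogenes of PSMA6 and 0 of PSMA1, whose part was not tested either. Over all 35 members the level per kb ran from 102 to 4198.

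In the 20S beta ring, 5 of 7 listed constitutive subunits were higher. PSMB2 led with a log2 fold change of 0.57 (adjusted p 7.92e-22, SE 0.06) at a mean normalized count of 5717 in the authors' deposited table. PSMB6, which carries the caspase-like protease site, and PSMB3 were both at 0.47, with SEs of 0.08 and 0.07 there. PSMB4 was at 0.23 (SE 0.07) and PSMB1 at 0.19 (adjusted p 0.0318, SE 0.08, mean normalized count 3033) in the authors' deposited table. The interval of PSMB2 was apart from those of PSMB4 and PSMB1, and that of PSMB3 from that of PSMB1. PSMB5 and PSMB7, which carry the chymotrypsin-like and trypsin-like sites, have no value here.

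The immunoproteasome showed no member in the table. PSMB8, PSMB9 and PSMB10, the catalytic subunits that interferon induces in place of the constitutive ones, and the thymus subunit PSMB11 have no value, nor do PSME1 and PSME2, which encode the interferon-induced PA28 cap. It is not known whether they were tested, so no change and a low level cannot be told apart.

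**Figure D3:**
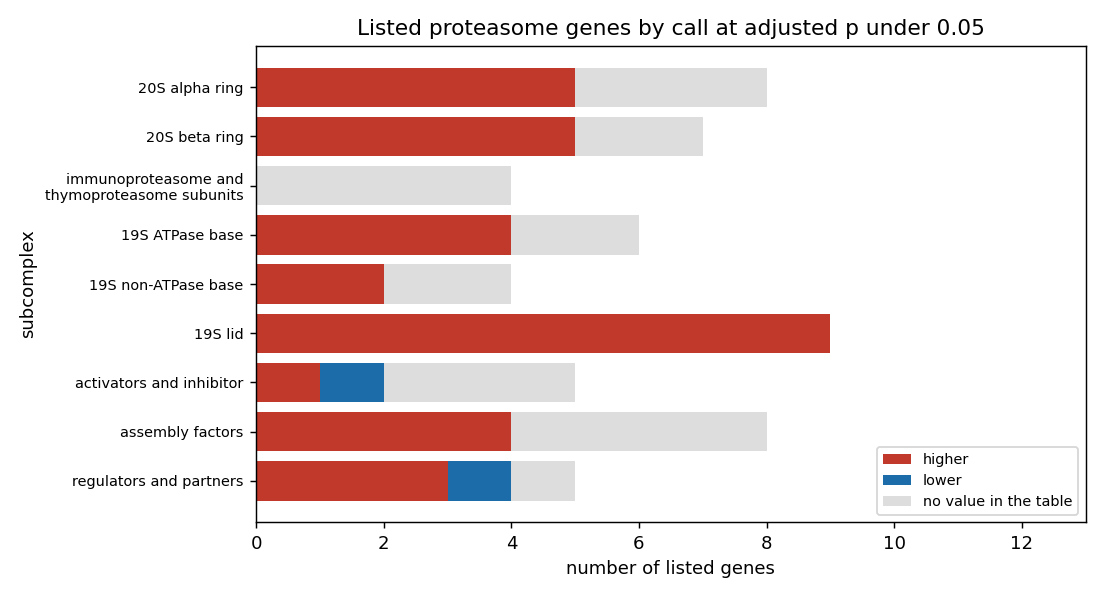
Number of listed genes (x axis) in each subcomplex (y axis) that were higher, lower or without a value at an adjusted p under 0.05 in the authors' deposited table. The 19S lid is the subcomplex with all 9 genes higher, and none of the 4 immunoproteasome and thymoproteasome subunits has a value.

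In the ATPase ring of the 19S base, 4 of 6 genes were higher, PSMC4 and PSMC2 by more than PSMC6 and PSMC1. PSMC4 showed a log2 fold change of 0.83 (adjusted p 3e-40, SE 0.06) at a mean normalized count of 4312 in the authors' deposited table, a 1.77-fold difference and the smallest adjusted p of all members. PSMC2 was at 0.70 (SE 0.08) there. PSMC6 was at 0.37 (SE 0.08) and PSMC1 at 0.36 (adjusted p 0.00228, SE 0.11, mean normalized count 1000) in the authors' deposited table. The intervals of 3 of the 6 pairs were apart: PSMC4 from PSMC6 and PSMC1, and PSMC2 from PSMC6. NRDE2, a gene on the opposite strand that covers 82.1% of the principal PSMC1 transcript, was itself higher in the authors' deposited table, with a log2 fold change of 0.51 (SE 0.15); the libraries carry no strand to tell their reads apart. PSMC3 and PSMC5 have no value here.

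The large scaffold and ubiquitin-receptor subunits of the base moved little. PSMD2, a scaffold that docks substrate shuttles, showed a log2 fold change of 0.21 (adjusted p 0.000285, SE 0.05) at a mean normalized count of 7183 in the authors' deposited table. ADRM1, the ubiquitin receptor that holds UCHL5, was at 0.24 (adjusted p 0.00213, SE 0.07, mean normalized count 3458) there. Both lie at about the median of the table. LAMA5, which overlaps 15.9% of the ADRM1 transcript from the opposite strand, was lower at −0.94 (SE 0.06) in the authors' deposited table. Its part in the ADRM1 value was not tested. PSMD1, the other scaffold, and PSMD4, the other ubiquitin receptor, have no value here.

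The 19S lid was complete: all 9 listed genes have a value and all were higher, with a median log2 fold change of 0.45. PSMD12 was at 0.79 (adjusted p 2.22e-26, SE 0.07, mean normalized count 2639) in the authors' deposited table. PSMD14, the metalloprotease that cuts ubiquitin chains off the substrate, was at 0.77 (adjusted p 1.04e-26, SE 0.07, mean normalized count 3047) in the same table of the authors. These 2 lay above the other lid genes, and their intervals were apart from those of PSMD11, SHFM1, PSMD8, PSMD3 and PSMD6 in each case. PSMD13 followed at 0.55 (SE 0.08), then PSMD3 and PSMD6 at 0.45, PSMD7 at 0.44 and PSMD8 at 0.42 in the authors' deposited table. SHFM1, a small acidic subunit also named SEM1, was at 0.35 (SE 0.10) and PSMD11 lowest at 0.29 (adjusted p 5.31e-05, SE 0.07, mean normalized count 3475) in the authors' deposited table. SIRT3, which overlaps 15.9% of the PSMD13 transcript from the opposite strand, went the other way at −0.99 (SE 0.19) there. AC009120.2, a non-coding model without a value here, covers 50.4% of the PSMD7 transcript from the opposite strand.

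The activators with a value went in opposite directions. PSME3, which forms the nuclear PA28 gamma cap, showed a log2 fold change of 0.31 (adjusted p 2.77e-06, SE 0.06, mean normalized count 4189) in the authors' deposited table. PSME4, which encodes the cap PA200, was lower at −0.14 (adjusted p 0.0332, SE 0.06, mean normalized count 5777), a 0.908-fold level, in the authors' deposited table. Their intervals were apart. The inhibitor PSMF1 has no value here, and only 2 of the 5 listed genes of this group do.

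Assembly factors held the 2 largest changes of all members, PSMD9 and PSMG3, whose intervals overlap that of PSMC4. Of 8 listed, 4 were higher and the rest have no value, with a median log2 fold change of 0.82 among the 4. PSMD9, a chaperone of the ATPase ring, was at 1.05 (adjusted p 5.33e-08, SE 0.19) at a mean normalized count of 283, while PSMG3, a chaperone of the alpha ring, was at 1.02 (adjusted p 8.68e-15, SE 0.13, mean normalized count 790) in the authors' deposited table, or 2.07-fold and 2.02-fold. POMP, which guides the beta ring and closes the core, was at 0.61 (adjusted p 1.04e-08, SE 0.10, mean normalized count 1245) there. PSMD5, another base chaperone, was lowest of the 4 at 0.41 (adjusted p 0.00275, SE 0.13, mean normalized count 667) in the authors' deposited table. The intervals of PSMD5 and PSMG3 were apart, as were those of PSMD5 and PSMD9. POMP is the only one of the 4 whose mean normalized count reached 1000. Other gene models cover 43.8% of the PSMD9 transcript, among them WDR66, which had 1.39 (SE 0.61) as its log2 fold change in the authors' deposited table. PSMG1, PSMG2, PSMG4 and PSMD10 have no value here.

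The regulators did not move as one. VCP, the abundant p97 unfoldase, showed a log2 fold change of 0.49 (adjusted p 4.53e-19, SE 0.05) at a mean normalized count of 12068, the highest of all members, in the authors' deposited table. UCHL5, a deubiquitinase of the base, was at 0.26 (adjusted p 0.0148, SE 0.10, mean normalized count 1432) there. NFE2L1 was at 0.13 (adjusted p 0.0464, SE 0.06, mean normalized count 7159), a 1.09-fold difference that lies below the table's median, in the authors' deposited table. DDI2 was lower at −0.31 (adjusted p 8.56e-05, SE 0.07, mean normalized count 2496), a 0.806-fold level, in the authors' deposited table. The interval of DDI2 was apart from those of the other 3, and that of NFE2L1 from that of VCP. RSC1A1, a gene on the same strand without a value here, covers 17.4% of the principal DDI2 transcript. Its part in the DDI2 value was not tested. NFE2L2 has no value here, and mRNA levels do not show how much of either NRF protein is cut or active.

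Genes that deliver substrates to the proteasome or otherwise work with it were also higher more often than lower. Of 24 listed partner genes, 14 (58.3%) were higher, 2 (8.33%) lower and 8 have no value, beside 22.4% higher and 21.1% lower of all genes tested, with a median log2 fold change of 0.50 in the authors' deposited table. ZFAND2A, a proteasome-binding protein induced by proteotoxic stress, was at 1.19 (adjusted p 3.12e-28, SE 0.11) and ZFAND5, which stimulates the 26S proteasome, at 1.05 (adjusted p 2.19e-53, SE 0.07) in the authors' deposited table. UFD1L, a ubiquitin-binding cofactor of VCP, was at 0.88 (adjusted p 6.01e-18, SE 0.10) there. PAAF1, a chaperone of the ATPase ring, went the other way at −0.66 (adjusted p 0.000113, SE 0.16), unlike PSMD9 and PSMD5, in the authors' deposited table. The other lower partner was FAF2, a VCP adaptor of the endoplasmic reticulum, at −0.56 (SE 0.09), in the authors' deposited table, a gene picked with its value in view.

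Genes of antigen processing, which use proteasome products, showed both directions. Of 11 listed, 6 (54.5%) were higher and 4 (36.4%) lower in the authors' deposited table, beside 22.4% and 21.1% of all genes tested. NLRC5, the activator of class I genes that also acts on PSMB9, was at −1.65 (adjusted p 4.61e-14, SE 0.22) in the authors' deposited table. The peptide-trimming enzymes ERAP1 and ERAP2 were both at −1.10 (SE 0.14 each) there, with adjusted p of 1.14e-15 and 1.11e-14. CANX, a chaperone of the endoplasmic reticulum that also serves many other proteins, was at 0.64 (adjusted p 2.74e-45, SE 0.04) in the authors' deposited table. TAP1 has no value here.

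**Figure D4:**
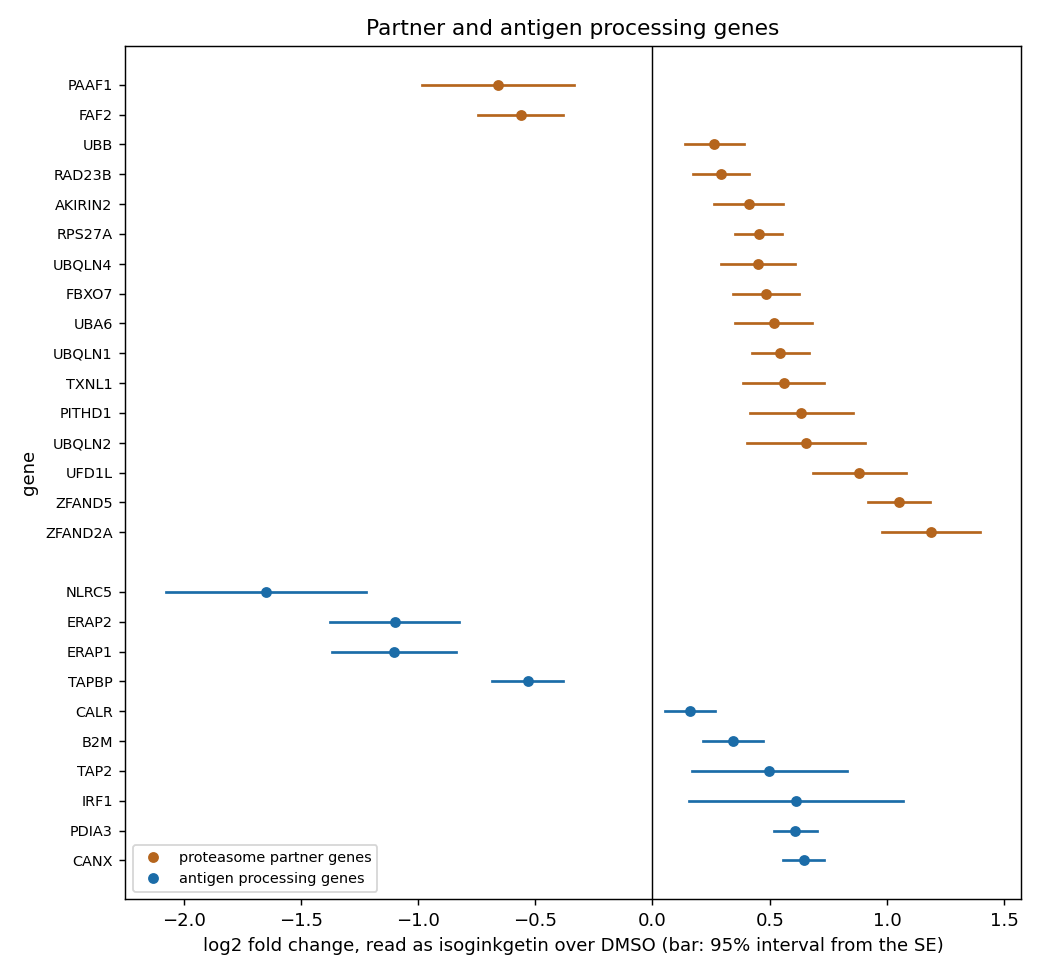
Log2 fold change (x axis) of the partner genes and of the antigen processing genes (y axis) with a value in the authors' deposited table; points are the authors' values and bars 95% intervals from their SE. Partner genes lie between −0.66 and 1.19 with 14 of 16 above 0, and antigen processing genes between −1.65 and 0.64 with 6 of 10 above 0.

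Markers of the labelled cell type moved beside these genes. Of 10 hepatocyte and HepG2 markers, 9 have a value and all 9 were lower, from −0.21 for APOA1 to −1.17 for AHSG, with AFP at −1.04 and a mean normalized count of 31202 in the authors' deposited table. Markers of other cells with a value were 1 of 7 for fibroblasts, 2 of 7 for leukocytes and 2 of 5 for endothelium, all 5 lower, and their part in the proteasome values was not tested.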

How the data were processed

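The deposited comparison of 2 isoginkgetin and 2 DMSO libraries of HepG2 cells was the only file. Per the labels' protocols, polyadenylated RNA was made into libraries without strand information. Per the submitters' processing notes, the builds named are hg19 and mm10 and the tools are featureCounts and STAR 2.7.0, in roles not given in the sources used here. Per the file headers, the authors' columns are those of a DESeq2 results table. The authors' deposited mean normalized count is a signal averaged over libraries. Fold changes and SEs deposited by the authors are log2 values. The authors' deposited p-values are per gene, and their adjustment (Benjamini-Hochberg) covers 20024 genes, a number recovered from adjusted p times rank over p in 2125 of 2309 values.

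Members and lists were chosen with earlier results of these data known. No test of this work's own was run: the planned count model needs values per library, which this table does not hold, and lists are given by count and median. Named are, in each subcomplex, the members with the largest and smallest change and those against the majority, all regulators, POMP and ADRM1, and the 4 largest changes of the partner and antigen lists. A few genes of those 2 lists are not reported here and are left out of their counts. The fold over SE was 0.942 to 1.00 times the normal deviate of the member's own p-value, so the fold changes may be slightly shrunken. The 95% intervals are the log2 fold change ± 1.96 SE, unadjusted, and compare genes within the same libraries. Transcript lengths and overlaps came from GENCODE 29 (GRCh38), whose annotation may differ from the authors'. Symbols matched GENCODE for all 56 listed genes, SHFM1 as SEM1. Recovery of the tested number and the motif search were tested on simulated data. Alternatives were stricter thresholds, minimum folds, a minimum mean of 1000 and centring on the median. Tools were Python 3.11.15, pandas 2.3.3, scipy 1.17.1 and matplotlib 3.10.9.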

Additional observations from a re-analysis of the deposited data

How the results depend on the processing

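No paired analysis was possible because the deposited table holds no values per library; for the same reason no library could be left out. Adding the 2 antisense names gave 35 higher. Limiting motifs to the upstream part, which lies within the whole window, lowered the antioxidant core from 37.5% to 34.4% of the 32 members. The CCAAT box fell from 50% to 46.9% of them, and the interferon-stimulated and amino acid response cores stayed at 12.5% and 0%. Over all genes the same limit lowered the antioxidant core from 16.1% to 13.2% and the CCAAT box from 39.7% to 37.0%. Members higher were 33 as deposited and 18 with Bonferroni, 8 at 1.5-fold and 2 at 2-fold; lower were 2 as deposited, 1 at an adjusted p under 0.001, 0 with Bonferroni, at 1.5-fold and at 2-fold, and 5 when centred. Their median of 0.444 became 0.555 with Bonferroni, 0.778 at 1.5-fold, 1.034 at 2-fold and 0.231 when centred. Counts of higher genes by subcomplex fell as follows. Of all genes tested, 14.5% were higher at an adjusted p under 0.001, 10.7% with Bonferroni, 12.2% at 1.5-fold and 6.26% at 2-fold. At a mean of at least 1000 that share was 10.5%. At an adjusted p under 0.001 they were 3 for the alpha ring, 3 for the beta ring, 1 for the non-ATPase base and 1 for the regulators. With Bonferroni they were 2, 3, 0 and 1 for those 4 groups and 2 for the ATPase base. At 1.5-fold the alpha ring had 1 (12.5%), about the share of all genes. At that fold there were 2 for the ATPase base, 2 for the lid and 0 for the beta ring, non-ATPase base, activators and regulators. At 2-fold they were 2 for assembly factors and 0 for the rest. At a mean of at least 1000 they were 3 for the alpha ring and 1 for assembly factors. Medians by subcomplex mostly rose under filters that drop small changes. For the alpha ring (0.542) the median was 0.711 at 1.5-fold. For the ATPase base (0.538) it was 0.701 at an adjusted p under 0.001 and 0.764 both at 1.5-fold and with Bonferroni. For the lid (0.449) it was 0.778 at 1.5-fold. For assembly factors (0.815) it was 1.016 at 1.5-fold, with Bonferroni and at an adjusted p under 0.001, 1.034 at 2-fold and 0.614 at a mean of at least 1000. For the regulators (0.196) it was 0.490 with Bonferroni, 0.089 at an adjusted p under 0.001, and reversed to −0.017 when centred. Centring also gave 0.329 for the alpha ring, 0.259 for the beta ring, 0.325 for the ATPase base, 0.236 for the lid and 0.602 for assembly factors. Partner genes higher (14) were 5 at 1.5-fold and 2 at 2-fold; lower (2) were 1 with Bonferroni, at 1.5-fold and at a mean of at least 1000, and 0 at 2-fold. Antigen processing genes higher (6) were 3 at 1.5-fold, with Bonferroni and at an adjusted p under 0.001, and 0 at 2-fold; lower (4) were 1 at a mean of at least 1000. These changes in counts and medians follow from keeping fewer genes, or from the shift of 0.21 itself, and no gene was tested again. Depth per library is unknown.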

Other observations

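Transcripts named after members but not among them were higher too, and were singled out after their values were seen. PSMD6-AS2, an antisense transcript of PSMD6, showed a log2 fold change of 1.88 (adjusted p 9.29e-07, SE 0.39) at a mean normalized count of 76 in the authors' deposited table. PSMD5-AS1 was at 0.74 (adjusted p 5.92e-05, SE 0.18, mean normalized count 325) there. PSMD6 itself was at 0.45 and PSMD5 at 0.41. Without strand, reads of a gene and its antisense partner cannot be told apart where they overlap. In GENCODE, other gene models cover 0% of the principal PSMD6 transcript and 0% of that of PSMD5. Overlap with other transcripts of these genes was not measured. Whether the authors' annotation holds such an overlap was not tested.

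VCPIP1, a deubiquitinase that works with VCP, was at 0.97 (adjusted p 5.62e-19, SE 0.11), and VCPKMT, the methyltransferase that modifies VCP, at 1.29 (adjusted p 3.52e-08, SE 0.23) in the authors' deposited table. VCP, their shared partner, was at 0.49.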
